A study of Mus musculus with 6 samples.

Results

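Il6, Il1b, Ccl2, Il10 and Tlr4, genes of cytokines and of a Toll receptor, were examined for DNA methylation in the hypothalamus of 16 week old mice. Each gene was represented by the probes lying wholly within a fixed window around it in the mm9 build, 49 of the 174638 probes that are not controls: 8 for Il6, 16 for Il1b, 8 for Ccl2, 9 for Il10 and 8 for Tlr4. Within a window probes were taken by position alone, but the genes were chosen with earlier results of these data known. Methylated DNA was enriched with an antibody (MeDIP), labelled with Cy5, and read against DNA that was not enriched (input DNA) carrying Cy3 on tiling arrays. The obesity group comprised 3 arrays and had mothers described as obese on a high fat diet. The inulin group comprised 3 arrays and had mothers that received inulin, a plant fibre fermented by gut bacteria. The labels of the inulin samples name no other diet, no label gives sex or litter, and no samples from lean dams were analysed here. Where nothing says the samples came from separate litters, p-values reflect only how these samples varied, which may be technical. The tissue holds neurons, glia and vessel cells together, so a change in cell makeup and a change in methylation per cell cannot be told apart. No RNA was measured, so the tissue label was not checked against marker genes, and the values say nothing of expression.

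Tlr4 is a cell surface receptor for bacterial lipopolysaccharide, present in the brain mainly on microglia, and signals through Myd88 and NF-kB. Il6 and Il1b are pro-inflammatory cytokines switched on by that pathway, and Ccl2 is a chemokine that attracts monocytes. Il10 is an anti-inflammatory cytokine that restrains the same response. High fat feeding is known to raise inflammatory signalling in the hypothalamus, where these genes are commonly followed. Methylation of mammalian DNA lies mostly on the C of CG pairs, and the MeDIP antibody recovers more DNA where methylated CG pairs are dense.

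RefSeq promoters, from 250 bases before to 50 after the annotated gene start, were matched by symbol for 2 of the 5 genes, Il6 and Il1b. They are printed 5′ to 3′ with the CG pairs in capitals, to show where CG pairs lie near these starts.
Il6, GRCm38.p6 chr5:30012864-30013163, plus strand: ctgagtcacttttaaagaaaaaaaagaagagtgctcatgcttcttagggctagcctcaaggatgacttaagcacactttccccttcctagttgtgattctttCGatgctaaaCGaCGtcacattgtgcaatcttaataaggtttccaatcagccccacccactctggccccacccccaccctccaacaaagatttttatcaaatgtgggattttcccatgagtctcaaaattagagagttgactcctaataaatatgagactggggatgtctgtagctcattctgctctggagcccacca
Il1b, GRCm38.p6 chr2:129371090-129371389, minus strand: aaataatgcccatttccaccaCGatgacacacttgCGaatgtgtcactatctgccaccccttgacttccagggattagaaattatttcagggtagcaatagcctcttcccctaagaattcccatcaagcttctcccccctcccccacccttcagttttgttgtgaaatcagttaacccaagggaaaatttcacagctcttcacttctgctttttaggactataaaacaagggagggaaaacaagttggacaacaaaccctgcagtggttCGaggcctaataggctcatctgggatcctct

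Each of these promoters holds 3 CG pairs, against a median of 7 over the 32851 promoters of that table, of which 31.4% hold 3 or fewer and 94.6% at least 1. In Il6 the 3 pairs start at -148, -138 and -135, counted from 0 at the first base of the gene. In Il1b they start at -229, -215 and 19. The Il6 promoter holds 1 match to TGAGTCA, an AP-1 type sequence (5.20% of promoters hold it on either strand), and 1 on the minus strand to TGACGT, the core of cyclic AMP response elements (7.51%). The last overlaps the CG pair at -135. Neither strand of the Il1b promoter holds either of these longer sequences. These positions are in another build than the array's mm9, so the probes were not placed relative to them, nor relative to exons or untranslated regions.

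The measured value was the log2 ratio of the red MeDIP signal over the green input signal, with each array centred on its own median, so 0 is the array's median probe. On single arrays 94.4% to 96.4% of the probes had input signal well above background, and 77.3% to 85.7% had MeDIP signal so. Among the 49 members, the input signal was well above background on all 6 arrays at 46 probes and the MeDIP signal at 38, where 73.5% of all probes passed for MeDIP. At 8 members a channel was not above background on any array of a group, which leaves a bound only. A probe's level also depends on its sequence, so levels are given per probe and differences are drawn between groups at the same probe. Precision is limited by the number of arrays. Slides were told apart by the scan identifier in the file headers, so a slide here means the arrays that share an identifier. Slide 1 carried the 3 inulin arrays, slide 2 carried obesity arrays 1 and 3, and slide 3 carried obesity array 2. No slide held both groups, so slide and group cannot be told apart, and no comparison within a slide can be made.

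The first comparison asked whether the ratio over each gene's probes differed between the groups. In each window the probes formed 1 uninterrupted run with starts at most 500 bp apart, so each gene gave 1 region, the mean of its probes. None of the 5 regions passed the threshold of an adjusted p under 0.05 (limma, Benjamini-Hochberg over all 22574 regions), and 0 of 5 had an unadjusted p under 0.05. The shares over all regions were 7.42% for the adjusted and 28.6% for the unadjusted threshold. The adjusted p ran from 0.183 for Ccl2 to 0.984 for Il1b. At 4 of the 5 genes the mean ratio was higher in the inulin group, with a median difference of 0.093 over the 5, where the median over all regions was 0.033 and 57.3% of regions were higher. The groups did not overlap at Ccl2 alone, against 35.0% of all regions.

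**Figure D1:**
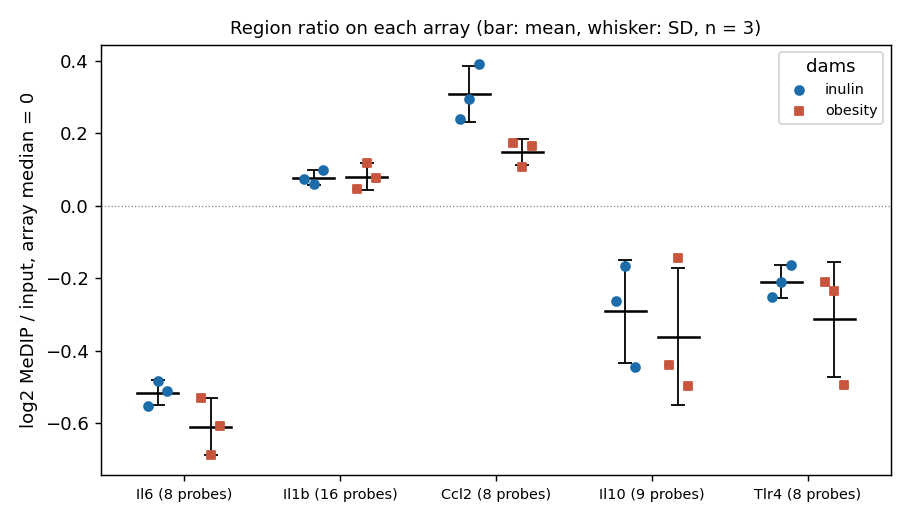
Log2 MeDIP over input ratio of each gene's region on each array, centred on the array median, with circles for the inulin group, squares for the obesity group, bars for the mean and whiskers for the SD (n = 3). The groups separate at Ccl2 and overlap at the other 4 genes, with the points of Il1b closest together and those of Il10 widest apart.

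At single probes, 5 of the 49 members passed the adjusted threshold (10.2%), against 8.21% of the 170019 probes tested (limma, Benjamini-Hochberg). The members called were 4 higher in the inulin group, where 5.12% of all probes were, and 1 lower, where 3.08% were. There was 1 each at Il6, Il1b and Ccl2 and 2 at Tlr4, and the Ccl2 probe had no MeDIP signal above background. Of the 49, 9 had an unadjusted p under 0.05 (30.1% of all probes) and 14 had groups that did not overlap (38.7% of all probes). The members' share of calls lay near that of the array. Differences ran from -0.65 to 0.86, with 24 members higher (49.8% of all probes were) and 25 lower, and a median of -0.017 against -0.0020 over all probes. The spread of the ratio over an array's probes also separated the groups. Its interquartile range was 1.371, 1.386 and 1.38 on the inulin arrays and 1.624, 1.885 and 1.694 on the obesity arrays. Whether this bears on the calls was not tested. The balance of directions over the array varied with the processing, and the cause was not tested. There were 8712 probes called higher and 5244 lower, but 2927 and 3040 once the arrays had an equal scale. Loess left the excess of higher calls in place, at 13185 against 8029. The counts were 13640 and 13450 with normexp, 2179 and 2419 after quantile normalization, 2103 and 2928 in the authors' deposited table, and 7820 and 8276 over probes above background in both channels. With slide as a random block 0 members passed (270 of all probes, 0.159%). Without inulin array 1, 2 or 3 also 0 passed, where 0.553%, 0.421% and 1.33% of all probes did. Without obesity array 1 only the Il6 probe passed (3.05% of all probes did) and without obesity array 3 only the Il1b probe (3.5%). Calls thus fell over the whole array in these fits, not at the members alone.

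**Figure D2:**
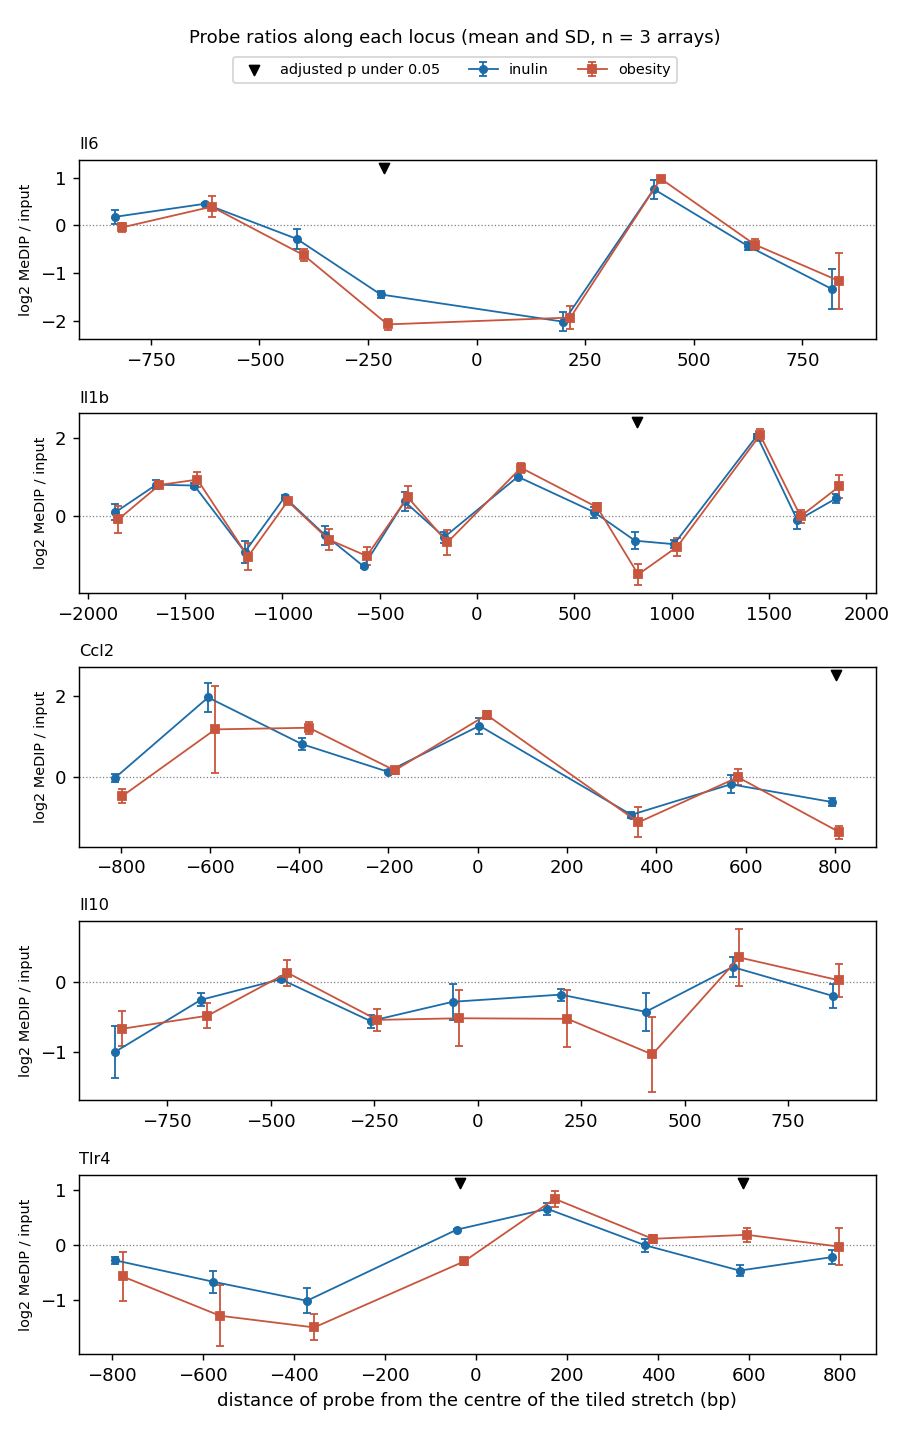
Mean log2 MeDIP over input ratio of each probe in the inulin group (circles) and the obesity group (squares), with SD (n = 3 arrays), against the probe's distance in bp from the centre of the tiled stretch. Triangles mark the 5 probes with an adjusted p under 0.05, the one at Ccl2 being a probe without MeDIP signal above background. At Tlr4 the inulin group lies above the obesity group at the first 4 probes and below it at the last 4.

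The Il6 region covered chromosome 5 from 30338401 to 30340108 (mm9). Its ratio was -0.55, -0.49 and -0.51 on inulin arrays 1 to 3 and -0.53, -0.69 and -0.61 on obesity arrays 1 to 3. The groups overlapped through obesity array 1. The means were -0.52 ± 0.034 and -0.61 ± 0.0785 (SD, n = 3 each), a difference of 0.093 (limma SE 0.073, 95% interval -0.070 to 0.26, adjusted p = 0.428). The direction turned with arrays equally scaled (-0.033) and with quantiles matched (-0.039). Its level lay at percentile 22.4 of all regions, the lowest of the 5 genes.

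Within Il6 the fourth probe, from 30339016 to 30339067, passed the threshold. Its ratio was -1.41, -1.40 and -1.54 on the inulin arrays and -1.94, -2.16 and -2.14 on the obesity arrays. All 3 inulin arrays lay above all 3 obesity arrays, by 0.63 in the mean (limma SE 0.12, adjusted p = 0.0288). The MeDIP signal differed by 0.69 (adjusted p = 0.0415) and the input signal by 0.082 (adjusted p = 0.722). It was 0.24 both with arrays equally scaled and with quantiles matched, where it did not pass (adjusted p = 0.209 and 0.235), and 0.30 with normexp (adjusted p = 0.0301). In the authors' deposited table it was 0.21 and did not pass (limma adjusted p = 0.150). The neighbour before it, from 30338826, was higher by 0.34 (limma unadjusted p = 0.0486, adjusted p = 0.163), without overlap. The highest mean ratio, 0.87, was at the probe from 30339645 and the lowest, -1.98, at the probe from 30339440, whose MeDIP signal was above background on 1 array only. The former differed by -0.22 (limma adjusted p = 0.308), and for the dim one no difference is given.

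The Il1b region, the longest at 16 probes, covered chromosome 2 from 129194343 to 129198093 (mm9). Its ratio was 0.074, 0.059 and 0.099 on the inulin arrays and 0.045, 0.12 and 0.077 on the obesity arrays. The 6 values interleaved. The means were 0.077 ± 0.020 and 0.080 ± 0.037 (SD, n = 3 each), a difference of -0.0029 (limma SE 0.067, 95% interval -0.15 to 0.15, adjusted p = 0.984). The pooled SD of 0.030 was at percentile 1.56 of all regions, so this gene's mean varied little between arrays. A mean over more probes tends to vary less, and the percentile does not allow for the number of probes.

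Single Il1b probes ranged much more widely, with mean ratios from -1.14 at the probe from 129195621 to 2.06 at the probe from 129197637. The former was dim, with MeDIP signal above background on 1 inulin array and 1 obesity array only. At the latter the inulin arrays read 2.06, 2.10 and 1.99, against 2.20, 2.09 and 1.92 on the obesity arrays. The groups overlapped there, with a difference of -0.020 (adjusted p = 0.928). The probe from 129197012 to 129197063 passed the threshold. Its ratio was -0.37, -0.76 and -0.72 on the inulin arrays and -1.43, -1.76 and -1.24 on the obesity arrays, without overlap. The difference was 0.86 (limma SE 0.18, adjusted p = 0.0349), the largest among the members. It was 0.42 with normexp (limma adjusted p = 0.0264), but 0.63 with arrays equally scaled and 0.62 with quantiles matched, where it did not pass (adjusted p = 0.0706 and 0.0781). In the authors' deposited table it was 0.10 (adjusted p = 0.613). In the channels the MeDIP signal was higher by 0.31 with overlapping groups (adjusted p = 0.278), and the input signal differed by -0.53 without overlap (adjusted p = 0.0820). Its neighbours on either side, from 129196806 and 129197216, differed by -0.12 and 0.067 (limma adjusted p = 0.553 and 0.787). Of the 16 probes, 8 were higher and 8 lower in the inulin group.

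The Ccl2 region covered chromosome 11 from 81847779 to 81849441 (mm9) and showed the largest difference of the 5. Its ratio was 0.24, 0.29 and 0.39 on the inulin arrays and 0.17, 0.11 and 0.16 on the obesity arrays. All inulin arrays were above all obesity arrays. The means were 0.31 ± 0.077 and 0.15 ± 0.036 (SD, n = 3 each), a difference of 0.16 (limma SE 0.072, 95% interval -0.0036 to 0.32, unadjusted p = 0.0543, adjusted p = 0.183). The size depended on dim probes. Over the probes above background in both channels it was -0.040 (adjusted p = 0.766), with normexp -0.0010 (adjusted p = 0.990), and over probes with input above background 0.071.

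At the last Ccl2 probe, from 81849382 to 81849441, the processed MeDIP signal was 120, 138 and 101 on the inulin arrays and 41, 54 and 31 on the obesity arrays. No array had it well above background, and no fold is given, although the ratio passed the threshold (adjusted p = 0.0247). The probe from 81847984 to 81848043 had the highest mean ratio, 1.56, but neither channel was above background on any array. Its input signal was at percentile 0.136 of all probes. Of the measurable probes, the one from 81847779 differed by 0.45 and the one from 81848202 by -0.40, both without overlap (limma adjusted p = 0.0759 and 0.0972). The former passed with loess, with normexp, in the authors' deposited table and over probes above background in both channels, and the latter with normexp only.

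The Il10 region covered chromosome 1 from 132915128 to 132916916 (mm9). Its ratio was -0.26, -0.17 and -0.45 on the inulin arrays and -0.44, -0.15 and -0.50 on the obesity arrays. The highest value of all was obesity array 2 and the lowest obesity array 3. The means were -0.29 ± 0.14 and -0.36 ± 0.19 (SD, n = 3 each), a difference of 0.0695 (limma SE 0.11, 95% interval -0.18 to 0.32, adjusted p = 0.718), and -0.0039 after quantile normalization. Dim probes enter this mean, and over the probes above background in both channels the difference was 0.20 (limma adjusted p = 0.381). The pooled SD of 0.17 was at percentile 82.4 of all regions. Obesity array 2, which had a scan identifier of its own, stood 0.32 above the mean of the other obesity arrays. That gap was at percentile 86.6 of all regions. Leaving it out gave a difference of 0.18 (limma adjusted p = 0.225), and leaving out obesity array 3 gave 0.0012 (adjusted p = 0.995).

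None of the 9 Il10 probes passed, 0 had an unadjusted p under 0.05 and all overlapped between the groups. The lowest p was at the probe from 132916412 to 132916459, where the ratio was -0.37, -0.18 and -0.73 on the inulin arrays and -1.03, -0.50 and -1.59 on the obesity arrays. Its means differed by 0.61 (limma SE 0.28, adjusted p = 0.185), and obesity array 2 fell among the inulin arrays. At the probe before it, from 132916204, obesity array 2 read -0.062 while the other obesity arrays read -0.67 and -0.84. That probe passed without obesity array 2 (difference 0.58, adjusted p = 0.0389) and did not pass with it (0.35, adjusted p = 0.289).

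The Tlr4 region covered chromosome 4 from 66487546 to 66489172 (mm9), with MeDIP and input above background on all 6 arrays at all 8 probes. Its ratio was -0.25, -0.21 and -0.16 on the inulin arrays and -0.21, -0.23 and -0.50 on the obesity arrays. The groups overlapped, and obesity array 3 stood below the other arrays. The means were -0.21 ± 0.045 and -0.31 ± 0.16 (SD, n = 3 each), a difference of 0.10 (limma SE 0.090, 95% interval -0.10 to 0.31, adjusted p = 0.481). It was 0.012 without obesity array 3 and -0.056 with the median of the probes in place of the mean.

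The small mean difference at Tlr4 hid probes that differed in opposite directions. The fourth probe, from 66488297 to 66488352, read 0.27, 0.30 and 0.27 on the inulin arrays and -0.26, -0.25 and -0.37 on the obesity arrays. It was higher in the inulin group by 0.57, with no overlap (limma SE 0.11, adjusted p = 0.0275). The seventh probe, from 66488923 to 66488969, read -0.39, -0.57 and -0.42 on the inulin arrays and 0.29, 0.038 and 0.24 on the obesity arrays. It was lower in the inulin group, also with no overlap (limma difference -0.65, SE 0.12, adjusted p = 0.0294). These probes start 626 bp apart, and both were also called with quantiles matched and with arrays equally scaled, the only members that were. With normexp the fourth differed by 0.37 and passed (limma adjusted p = 0.0203), while the seventh differed by -0.20 and did not (adjusted p = 0.135). In the authors' deposited table the fourth differed by 0.35 and passed (adjusted p = 0.0482), and the seventh by -0.21 and did not (adjusted p = 0.167).

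Along the Tlr4 stretch the first 4 probes were all higher in the inulin group, by 0.29, 0.62, 0.48 and 0.57, and the last 4 all lower, by differences of -0.18, -0.12, -0.65 and -0.19. The first 4 were higher under all 15 probe-level alternatives. The last 4 were lower under 13 of them, and 3 of the 4 were with normexp and in the authors' deposited table. These alternatives are not independent checks. The filters on dim probes and the replicate block could not change these differences, and the fits that leave out an array share most of their arrays. Neighbouring probes can be read by the same DNA fragments and are not independent, and this pattern was noticed in the data and not tested.

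Set apart by channel, the called probes differed in where the difference lay. At the fourth Tlr4 probe the inulin arrays had more MeDIP signal, by 0.76 (limma adjusted p = 0.0284) and the input by 0.20 (adjusted p = 0.439). At the seventh the MeDIP signal differed by -0.032 (adjusted p = 0.901), while the input was higher by 0.63 (adjusted p = 0.0143). Each channel was centred on its own median, so the channel differences add up to the ratio's only approximately.

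**Figure D3:**
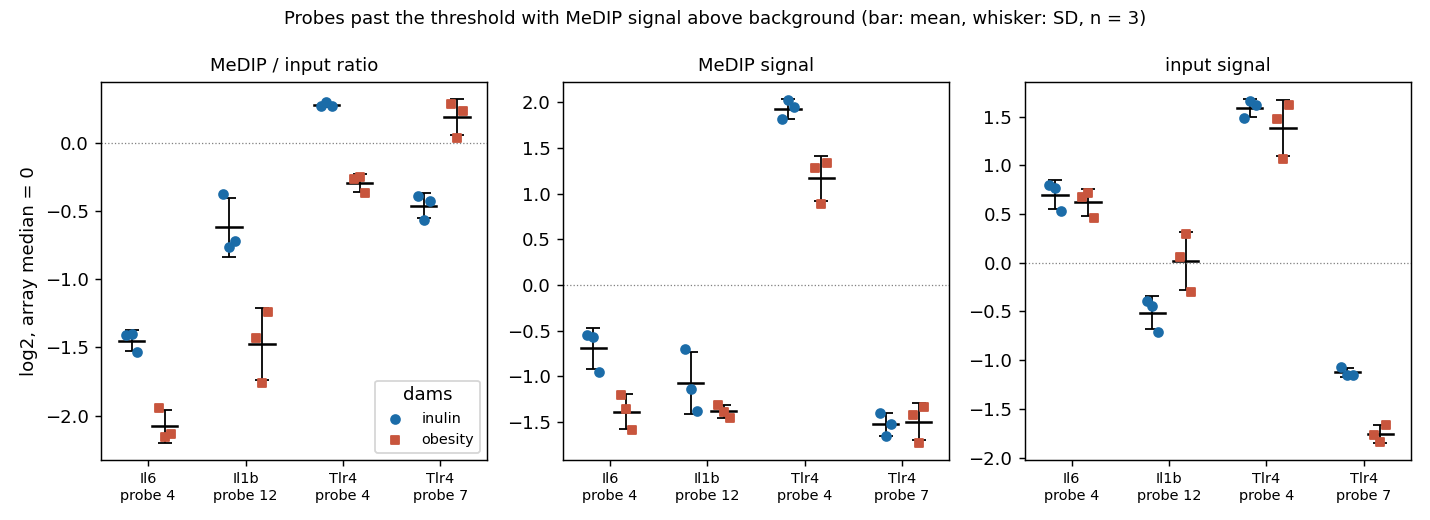
Log2 ratio, MeDIP signal and input signal, each centred on the array median, for the 4 called probes with MeDIP signal above background, on each array (circles inulin, squares obesity, bar the mean, whisker the SD, n = 3). The groups separate in the MeDIP signal at the fourth Il6 probe and the fourth Tlr4 probe and in the input signal at the Il1b probe and the seventh Tlr4 probe.

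The second comparison took each channel alone. No member region passed in either channel (limma, Benjamini-Hochberg), where 0.253% of all regions passed in the MeDIP channel and 2.14% in the input channel. At an unadjusted p under 0.05 there were 2 of 5 in the MeDIP channel, Il6 and Tlr4, and 1 in the input channel, Tlr4, against 21.0% and 24.4% of all regions. Tlr4 was the only gene whose groups did not overlap in a channel, and they did not in both, against 32.0% and 34.2% of all regions.

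The Tlr4 MeDIP signal was 0.74, 0.73 and 0.71 on the inulin arrays and 0.42, 0.26 and 0.19 on the obesity arrays. Its input signal was 0.93, 0.88 and 0.82 against 0.57, 0.42 and 0.61. Both were higher on every inulin array, by 0.43 (limma SE 0.082, adjusted p = 0.0869) and by 0.35 (SE 0.079, adjusted p = 0.0715), sizes at percentiles 90.7 and 85.0 of all regions. With quantiles matched they were 0.27 and 0.18 (limma adjusted p = 0.158 and 0.179). With slide as a random block they were 0.44 and 0.35 (limma adjusted p = 0.373 and 0.0996). The replicate block gave limma adjusted p = 0.156 and 0.155. The last Tlr4 probe, from 66489125 to 66489172, was the brightest Tlr4 probe, with an input signal at percentile 98.8 of all probes. Its MeDIP signal was 6.28, 5.76 and 6.25 against 5.45, 4.62 and 5.16, and its input signal 6.56, 5.94 and 6.27 against 5.56, 4.20 and 5.34. Both channels were higher on the inulin arrays there, by 1.02 and 1.23 in the mean (limma adjusted p = 0.0397 and 0.0458), and the ratio differed by -0.19 (adjusted p = 0.510). Over the other 7 probes, a set chosen after the values were seen, the MeDIP signal was -0.043 ± 0.049 against -0.39 ± 0.11 and the input signal 0.11 ± 0.058 against -0.11 ± 0.039 (SD, n = 3 each). The groups stayed apart in both channels without the bright probe.

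**Figure D4:**
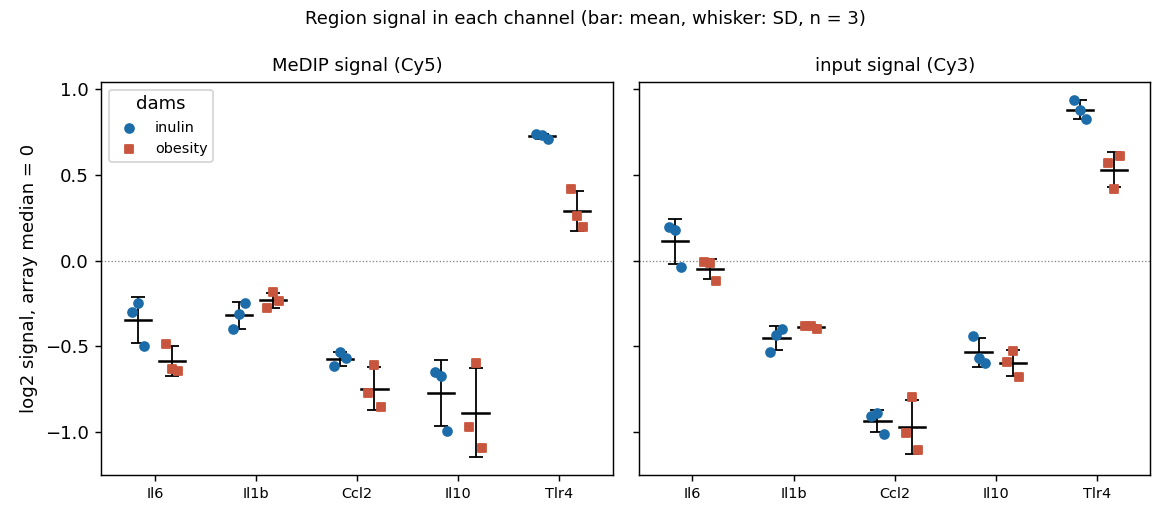
Log2 MeDIP signal (left) and input signal (right) of each gene's region, centred on the array median, on each array (circles inulin, squares obesity, bar the mean, whisker the SD, n = 3). The inulin arrays lie above the obesity arrays in both channels at Tlr4, and the groups overlap in both channels at the other 4 genes.

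The Il6 MeDIP signal was -0.30, -0.25 and -0.50 on the inulin arrays and -0.48, -0.63 and -0.64 on the obesity arrays. The groups overlapped through inulin array 3, and the means differed by 0.24 (limma SE 0.097, adjusted p = 0.232), with 0.16 in the input channel (adjusted p = 0.312). At Il1b, Ccl2 and Il10 the regions differed by -0.088, 0.17 and 0.11 in the MeDIP channel and by -0.068, 0.031 and 0.062 in the input channel, all with overlapping groups (adjusted p from 0.301 to 0.869).

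Probe by probe, 5 of the 49 members passed in the MeDIP channel (10.6% of all probes did) and 7 in the input channel (13.7% did). The MeDIP calls were all higher in the inulin group, as 6.94% of all probes were: the fourth Il6 probe, the first, the fourth and the last Tlr4 probe, and the last Ccl2 probe, which was below background. The input calls were 6 higher and 1 lower, against 7.94% and 5.75% of all probes. Those higher were the first, the seventh and the last Tlr4 probe, the last Ccl2 probe, the last Il6 probe (input above background on 2 of 3 obesity arrays), and the Il1b probe from 129195621 (difference 0.57, adjusted p = 0.0355). The Il1b probe before it, from 129195426, was lower (limma difference -0.53, adjusted p = 0.0412). At the first Tlr4 probe, from 66487546, the MeDIP signal differed by 1.06 and the input by 0.79 (adjusted p = 0.0266 and 0.0252), while its ratio did not pass (0.29, adjusted p = 0.388). At 3 members both channels passed, in the same direction each time. The input difference was larger in size than the MeDIP difference at 23 of the 49 members, and at 46.2% of all probes.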

How the data were processed

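The deposited scanner files hold, per the file headers, background-subtracted and dye-normalized intensity for each spot, with red for MeDIP DNA and green for input DNA, made by the authors with Feature Extraction 11.0.1.1. The authors' log10 ratio in the same files matched the ratio of these signals within 1e-04 at 99% of the probes. The deposited processed table is used as a score in an alternative only, because its scale and centring are not stated. Probe positions are in mm9, per the file headers. Here the log2 ratio was taken from the processed intensities, and outlier spots were left out, 1901 to 4863 per array. Each array was then centred on its median over the rest of the 174638 probes. Regions were runs of at least 3 probes with starts at most 500 bp apart. limma 3.58.1 in R 4.3.3 (lmFit, eBayes) compared 3 with 3 arrays over all regions or probes, with Benjamini-Hochberg adjustment and at least 2 arrays per group; figures used matplotlib 3.10.9. Differences are inulin minus obesity. The same fit was tested on simulated data. It recovered 39 of 50 regions shifted by 0.5 and 46 of 50 shifted by 1. Of single probes it recovered 0 of 50 shifted by 0.5 and 12 of 50 shifted by 1. Only 50 were shifted among 22574 regions or 170019 probes, while 1675 regions and 13956 probes passed in the measured data. The adjusted threshold therefore differs, and the recovered shares do not give the power of this comparison. Probes named are those that passed, and the one with the lowest p where none did; others singled out were chosen after their values were seen. The members and lists were chosen with earlier results of these data known. The list of further pathway genes was not analysed here, since no table used here pairs mm9 probes with genes. Alternatives covered background correction, normalization, filters on dim probes, region gaps, blocks and leaving out each array.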

Additional observations from a re-analysis of the deposited data

How the results depend on the processing

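No member region passed under any alternative, but small region differences changed direction. At Ccl2 it was -0.0010 with normexp and -0.040 over probes above background in both channels. At Il1b it was 0.00093 with loess, 0.016 on an equal scale, 0.0071 in the authors' deposited table, 0.012 over probes above background in both channels, 0.0064 without inulin array 2 and 0.016 without obesity array 2, within -0.021 to 0.016 over all single arrays left out. At Il6 it was -0.033 once arrays were equally scaled and -0.039 with quantiles matched, at Il10 -0.0039 with quantiles matched and at Tlr4 -0.056 with the median of probes. Differences also moved by more than the replicate SD at Ccl2 (0.053 in the authors' deposited table, 0.071 over probes with input above background, 0.038 with the median), at Il6 (0.028 in that table, 0.17 over probes above background in both channels) and at Il1b (-0.060 with the median). The cause was not tested.

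Member probes called higher numbered 4, but 1 once equally scaled, 1 with quantiles matched, 0 with a random slide block, 2 in the authors' deposited table, and 0 to 5 leaving out 1 array. Those called lower numbered 1 (with normexp also 1, but the Ccl2 probe from 81848202 in place of the seventh Tlr4 probe), but 0 in that table, 0 with the slide block and 0 to 1 leaving out 1 array. In the channels, chosen after seeing the data, quantile normalization gave 3 MeDIP and 4 input calls, and leaving out 1 array 1 to 6 and 1 to 9. The shares of all probes called in the channels were not taken under these alternatives. These counts therefore cannot be set against the array and are not read as a result about the members. Over the array 1675 regions passed, against 911 equally scaled, 497 with quantiles matched, 567 in that deposited table, 733 with the median, 2798 with loess, 0 with the slide block and 0 to 2171 leaving out 1 array. Probes called numbered 13956, against 5967, 4598, 5031, 27090 with normexp, 21214 with loess, 270 with the slide block and 701 to 15200.

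The deviations of same-numbered arrays from their group means correlated with r of -0.010, 0.15 and 0.24, which is not above 0.1 for every pair, and the numbers were not taken as pairing the samples. With the number as a replicate block 4 members were called higher and 1 lower, the Ccl2 region difference was 0.16 (limma adjusted p = 0.184), 0 member regions passed and 2699 regions over the array did. Inulin arrays 2 and 3 correlated best with the obesity array of their own number, and inulin array 1 with obesity array 2. With a gap of 300 bp the genes split into 10 regions, of which 0 passed. Dim MeDIP signal limits 8 of the 49 members to a bound.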
